A study of Mus musculus with 17 samples.

Results

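The constitutive proteasome was described through 31 genes of its subunits, 14 of the core particle and 17 of the regulatory particle, out of 31647 genes or merged gene groups counted in each heart. The members were chosen by gene symbol from the known composition of the complex, and the core and the regulatory particle were compared. All 31 were counted under their own identifier, and all 31 passed the filter on low counts, with between 43 and 1552 counts in a library. The libraries came from male C57BL/6 J wild-type mice examined 5 days after surgery. In 9 of them a myocardial infarction (MI) had been induced by permanently tying off the left anterior descending (LAD) artery, and RNA was taken from the infarct zone (IZ). The other 8 mice were sham operated without ligation, and RNA was taken from the left ventricle. No further allele, Cre driver or agent that distinguished the groups was given. The IZ was a dissected piece of ventricle and the sham sample was left ventricular tissue with no injured region, so region and injury cannot be told apart.

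The proteasome degrades proteins that carry ubiquitin chains. Its core particle is a barrel in which outer rings of alpha subunits control a gate and inner rings of beta subunits enclose the proteolytic sites. The regulatory particle caps the barrel. Its base holds a ring of ATPases that unfold substrates and thread them through the gate, and its lid removes the ubiquitin chain. In cardiomyocytes the complex turns over sarcomere proteins and clears misfolded proteins, and in leukocytes and interferon-exposed cells the catalytic beta subunits can be replaced by inducible forms that yield peptides for antigen presentation.

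Promoter sequences are shown for 4 members on which the results turn: the catalytic subunits Psmb5 and Psmb6, the member with the lowest fitted change, Psmd12, and the member with the highest, Psmd8. RefSeq (build GRCm38.p6) gave a promoter window of 250 bases before and 50 bases after the start for 25 of the 31 members. Psmb1, Psmb2, Psmb7, Psmc3, Psmd3 and Psmd7 had no entry. Only bases outside the annotated gene are printed, 5′ to 3′ on the strand of the gene, and capitals mark matches on either strand to any of 5 motifs (the cores of the antioxidant response element and of the ETS site, the GC box, the CCAAT box and the TATA box), each spelled out after the sequences. The stretches lie at chr14:54618023-54618245 (minus strand), chr11:70525107-70525356 (plus strand), chr11:107479278-107479483 (plus strand) and chr7:29180702-29180923 (minus strand).
Psmb5: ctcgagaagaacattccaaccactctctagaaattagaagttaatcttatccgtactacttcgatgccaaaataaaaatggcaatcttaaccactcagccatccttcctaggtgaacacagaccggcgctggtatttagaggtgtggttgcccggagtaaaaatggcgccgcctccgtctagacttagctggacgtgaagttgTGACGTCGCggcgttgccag
Psmb6: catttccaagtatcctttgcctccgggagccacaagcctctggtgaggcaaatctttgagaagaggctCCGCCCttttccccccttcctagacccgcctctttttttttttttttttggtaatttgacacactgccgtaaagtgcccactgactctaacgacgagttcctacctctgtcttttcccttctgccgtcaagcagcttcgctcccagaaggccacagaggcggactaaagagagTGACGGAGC
Psmd12: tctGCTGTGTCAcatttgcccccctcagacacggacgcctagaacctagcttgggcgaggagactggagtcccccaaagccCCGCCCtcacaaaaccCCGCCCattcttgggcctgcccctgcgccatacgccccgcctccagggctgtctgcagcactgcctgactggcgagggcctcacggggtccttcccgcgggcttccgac
Psmd8: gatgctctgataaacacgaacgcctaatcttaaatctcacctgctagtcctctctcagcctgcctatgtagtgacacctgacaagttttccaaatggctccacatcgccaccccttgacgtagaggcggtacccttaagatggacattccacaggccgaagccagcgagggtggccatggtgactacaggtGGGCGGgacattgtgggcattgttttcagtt

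The antioxidant response element core was searched as TGACNNNGC on both strands, and in the printed stretches no match overlapped another. Counted from -1 just before the RefSeq start, the antioxidant response element core began at -47 in Psmb5 and at -9 in Psmb6 on the strand of the gene, and at -247 in Psmd12 on the opposite strand. The printed bases of Psmd8 held a GC box and no antioxidant response element core. Across the windows, that core was found in 4 of 25 members (16%), the fourth being Psmc6, and in 14% of 27025 mouse genes. The ETS core, searched as CCGGAAG, was found in 10 of 25 members (40%) against 9.93% of all genes. The GC box, searched as GGGCGG, was found in 15 members (60%) against 38.2% of all genes. A CCAAT box was found in 10 members (40%) against 41.1% of all genes. The TATA box, searched as TATAAA, was found in 3 members (12%) against 15.7% of all genes. These are matches of letters, and binding was not measured.

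Total counts per library ran from 1237675 to 4738307. The labelled tissue was checked against markers. All 10 cardiomyocyte markers were called lower in the IZ with TMM scaling (trimmed mean of M values) and their summed level ran from 69664 to 82118 CPM (counts scaled to library size) in sham and from 3007 to 31279 CPM in the IZ, where replicate 1 stood apart and the other 8 ended at 7154 CPM. Of 8 fibroblast markers 7 were called higher, and all 9 macrophage and 5 of 5 proliferation markers were called higher. No marker of these lists was at 0 in every library. Mitochondrially encoded transcripts took 22.9 to 32.4% of the counts in sham, 4.22 to 6.78% in IZ replicates 2 to 9 and 19.5% in IZ replicate 1. In such bulk samples fewer cells of a type and less RNA per cell cannot be told apart, and the part of the changed cell make-up in the values of the proteasome genes was not tested.

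Subunits of both particles fell in the IZ and the lid subunits Psmd8 and Psmd14 rose when libraries were compared with TMM scaling, and all subunits rose when they were compared by total counts alone. With TMM scaling and edgeR's quasi-likelihood test (Benjamini-Hochberg threshold 0.05), 17 of the 31 members were called lower and 2 were called higher, and 12 were not called, whereas with total counts alone as library sizes all 31 were called higher. Over all 12301 genes tested with TMM scaling, 69.5% were called, 36.3% higher and 33.1% lower. With total counts alone, 74.8% of all genes were called higher and 12.4% lower. When mitochondrial features were left out of those totals, 23 members were called higher and 0 lower, against 64.3% and 16.8% of all genes. Of the members, 61.3% were called with TMM scaling, a share near that of all genes, with 54.8% called lower and 6.45% called higher. The calls of Psma1, Psmc2, Psmd1 and Psmd7 as lower were lost with upper quartile scaling and without the filter on low counts, and that of Psmb4 without the filter.

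The size of the members' changes also depended on the scaling. With TMM scaling none of the 31 was called with a change of at least 2-fold, against 37.6% of all tested genes, and their median absolute log2 fold change was 0.358, against 0.72 over all genes. With total counts alone 6 members (Psma5, Psmb1, Psmb3, Psmc4, Psmd8 and Psmd14) were called with such a change, against 63.2% of all tested genes, and the median absolute log2 fold change was 0.79, against 1.285 over all genes. The TMM fit placed them between -0.80 (Psmd12) and 0.61 (Psmd8), with a median of -0.29 against 0.05 over all genes, and total counts alone placed the median of all genes at 1.14. Relative to the median of all tested genes, the median member lay at -0.346 with TMM scaling and at -0.35 with total counts alone. Under both scalings 27 of 31 members lay below that median, and Psmb1, Psmb3, Psmd8 and Psmd14 lay above it. A change of library sizes moves all genes by a similar amount, so this match between the scalings was fixed in advance. The number below the median varied under other alternatives. It was 28, 13 of them core genes, when counts of near-identical pseudogenes were added. It was 29 without the filter on low counts or without sham replicate 2, and 26 without IZ replicate 8.

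**Figure D1:**
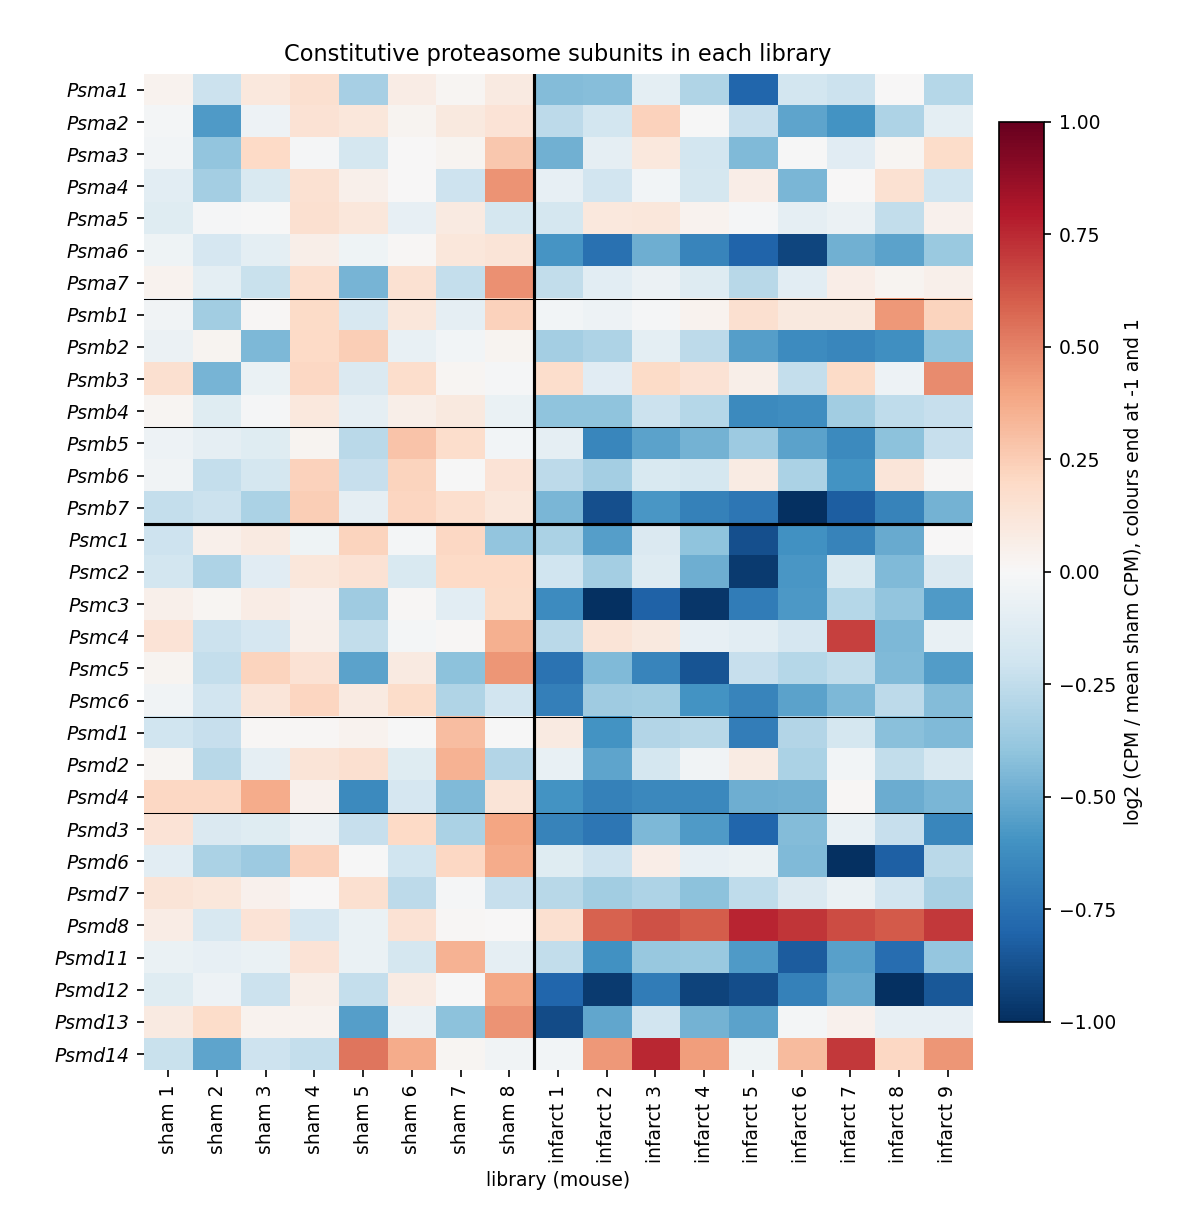
Heat map of 31 subunits (rows, ordered by role, core particle above the thick horizontal line) in 17 libraries (columns, 8 sham and 9 infarct zone). Colour gives the log2 ratio of each TMM-scaled CPM value to the mean of the sham libraries; Psmd8 was above its sham range in 9 of 9 infarct zone libraries and Psmd12 below its sham range in 9 of 9, while with total counts alone both were called higher.

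The heat map of the subunits by library shows that most rows were only slightly darker or lighter than sham, that the strongest blue lay in Psmd12, Psma6, Psmb7 and Psmc3, and that Psmd8 stood out in red, followed by Psmd14. Within the groups the spread of the members was close to that of other genes at their levels, and a difference was not tested. The median standard deviation of log2 CPM over members was 0.201 in sham and 0.207 in the IZ, against 0.228 and 0.265 over the 2289 tested genes in the same range of levels. With TMM scaling the IZ libraries lay entirely above the sham libraries for 1 member (Psmd8) and entirely below them for 5 (Psma6, Psmb4, Psmb7, Psmd11 and Psmd12). Over all tested genes such separation was found for 16.6% above and 16.5% below. All CPM levels of genes, and statements on whether the groups overlap in them, rest on TMM scaling.

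Most of the alpha ring was not called. With TMM scaling 2 of its 7 subunits, Psma6 and Psma1, were called lower and none was called higher, and with total counts alone all 7 were called higher. The share called lower was 28.6%, against 33.1% of all tested genes. With total counts alone 74.8% of all tested genes were called higher. Alpha subunits shape the entrance of the core, and the tail of Psma4 lies at the centre of the closed gate.

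Psma6 (ENSMUSG00000021024, chr12:55384222-55418454 in mm10) was the alpha subunit that set the groups apart. Its lowest, median and highest levels were 150, 167 and 184 CPM in sham and 89.3, 112 and 130.1 CPM in the IZ. Every IZ library lay below every sham library. With TMM scaling it fell by 0.61 ± 0.10 (SE) on the log2 scale (adjusted p = 7.31e-06), and with total counts alone its log2 fold change was 0.47. Strand use in counting was not given in the sources used here.

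Psma1 reached 103, 135 and 144 CPM as lowest, median and highest level in sham and 74.8, 106 and 129.6 CPM in the IZ, and 3 of 9 IZ libraries lay below the sham range. The fitted log2 fold change was -0.29 ± 0.11 with TMM scaling (adjusted p = 0.0258) and 0.80 with total counts alone. This call was lost without IZ replicate 2 (adjusted p range over all alternatives 6.96e-06 to 0.166), and also without IZ replicate 4 or 5.

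The other alpha subunits were not called. Psma2 averaged 111 ± 15.6 CPM in the 8 sham and 96.2 ± 17.1 CPM in the 9 IZ libraries (mean ± SD), and it was called lower once sham replicate 2 was left out, at a log2 fold change of -0.27. Psma3 (66.8 ± 9.30 against 62.5 ± 9.49 CPM), Psma4 (79.9 ± 14.2 against 75.0 ± 9.13 CPM), Psma5 (68.4 ± 5.61 against 67.2 ± 5.66 CPM) and Psma7 (232 ± 47.3 against 219 ± 18.5 CPM) had fitted log2 fold changes between -0.10 and -0.02. Their groups overlapped in each case. The 3′ ends of Psma4 and Psma5 are near-identical to processed pseudogenes, so their counts are uncertain.

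Among the beta subunits without a proteolytic site, which frame the inner rings, Psmb2 and Psmb4 were called lower with TMM scaling and higher with total counts alone, and Psmb1 and Psmb3 were not called with TMM scaling. This was 50% called lower with TMM scaling, against 33.1% of all tested genes. With total counts alone 74.8% of all tested genes were called higher. Psmb4 (ENSMUSG00000005779, chr3:94884093-94886961) had 218, 238 and 255 CPM as lowest, median and highest level in sham and 153, 187 and 205 CPM in the IZ. Its groups did not overlap. The log2 fold change was -0.37 ± 0.10 (adjusted p = 0.00195) with TMM scaling and 0.72 with total counts alone.

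Psmb2 averaged 112 ± 15.5 CPM in sham against 84.1 ± 11.5 CPM in the IZ, and its fitted change was -0.41 ± 0.11 (adjusted p = 0.00194) with TMM scaling against 0.67 with total counts alone. Psmb1 was at 196 ± 25.4 CPM in sham and 211 ± 23.4 CPM in the IZ, with a fitted log2 fold change of 0.11 ± 0.11. Psmb3 was at 63.7 ± 9.09 and 68.5 ± 9.94 CPM (0.10 ± 0.11). Psmb3 has a processed pseudogene with a near-identical 3′ end, Gm4950, whose feature held 86.8% as many counts as Psmb3 itself.

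Of the 3 catalytic subunits, Psmb7 and Psmb5 were called lower with TMM scaling and higher with total counts alone, and Psmb6 was not called with TMM scaling. This was 66.7% called lower with TMM scaling, against 33.1% of all tested genes. With total counts alone 74.8% of all tested genes were called higher. Psmb7 carries the trypsin-like site. Its lowest, median and highest levels were 124, 155 and 183 CPM in sham and 71.2, 96.2 and 112 CPM in the IZ, so the groups were apart. With TMM scaling Psmb7 (ENSMUSG00000026750, chr2:38588036-38644087) fell by 0.70 ± 0.12 on the log2 scale (adjusted p = 1.13e-05), the lowest value of the core, and with total counts alone its log2 fold change was 0.38. Nek6 overlaps it on the opposite strand and shares 255 bases with its 3′ end, so the counts of Psmb7 are uncertain. The log2 fold change of Nek6 itself was 3.19 with TMM scaling.

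Psmb5, which carries the chymotrypsin-like site and whose promoter is printed above, had 58.5, 68.9 and 86.0 CPM in sham as lowest, median and highest level and 45.1, 50.9 and 66.3 CPM in the IZ. In 7 of 9 IZ libraries it lay below the sham range, and the highest IZ value was that of replicate 1. Its log2 fold change was -0.43 ± 0.10 (adjusted p = 0.000802) with TMM scaling and 0.64 with total counts alone. A processed pseudogene with a near-identical 3′ end, Gm3375, held 65.4% as many counts.

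Psmb6, with the caspase-like site, had 113, 131 and 156 CPM in sham and 87.8, 118 and 145 CPM in the IZ, and the groups overlapped. Its fitted log2 fold change with TMM scaling, -0.17 ± 0.11, did not pass the test (adjusted p = 0.197), and with total counts alone it was called higher at 0.91.

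Each catalytic subunit has an inducible counterpart that takes its place in the immunoproteasome, and the share of the inducible gene in the counts of such a pair does not depend on library scaling. Psmb8 made up 26.1 ± 6.09% of the summed counts of its pair with Psmb5 across 8 sham libraries (mean ± SD) and 56.3 ± 5.75% across 9 IZ libraries. The sham libraries ran from 13.3 to 34.7% and the IZ libraries from 45.1 to 64.2%, so 9 of 9 IZ libraries lay above all sham libraries. Psmb9 made up 11.5 ± 1.76% of its pair with Psmb6 in sham and 19.8 ± 3.27% in the IZ, again with 9 of 9 above. Psmb10 made up 30.1 ± 5.12% of its pair with Psmb7 in sham and 37.9 ± 4.32% in the IZ. In that pair only 5 of 9 IZ libraries lay above the sham range, and the groups overlapped. The lower end of the Psmb8 range in the IZ, 45.1%, was that of replicate 1.

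**Figure D2:**
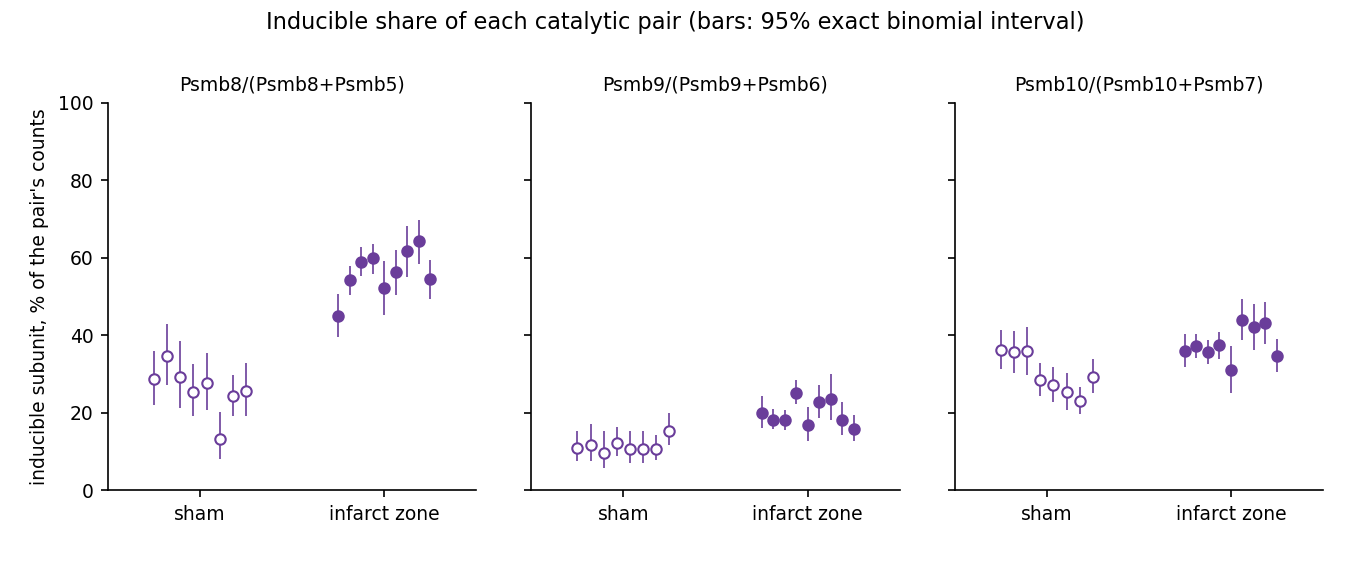
Inducible subunit as a percent of the counts of each catalytic pair, per library (open circles, 8 sham; filled circles, 9 infarct zone; bars, exact binomial 95% intervals of a library). Infarct zone libraries lay above all sham libraries in 9 of 9 cases for Psmb8 and Psmb9 and in 5 of 9 for Psmb10.

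The plot of the catalytic pairs shows that constitutive Psmb5 kept 65.3 to 86.7% of its pair in sham and 35.8 to 55.0% in the IZ. Gm3375, near-identical to the 3′ end of Psmb5, held 65.4% as many counts as Psmb5 and was left out of the pair. The shares of Psmb5 and Psmb8 are therefore uncertain. Psmb7 shares bases of its 3′ end with Nek6, so the shares of its pair are uncertain too. The single genes behind these shares moved unequally. Psmb8 was called higher with TMM scaling (1.46 ± 0.15, adjusted p = 9.17e-09) and with total counts alone (2.55), as was Psmb9 (0.72 ± 0.15, adjusted p = 0.000189, and 1.81). Psmb10 was not called with TMM scaling (-0.18 ± 0.11). Tap1 overlaps Psmb9 on the opposite strand. Interval bars cover counting error only.

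The ATPases of the base mostly fell with TMM scaling and rose with total counts alone. With TMM scaling 5 of 6 were called lower and none higher, with a median log2 fold change of -0.45, and with total counts alone all 6 were called higher. Over all tested genes 33.1% were called lower with TMM scaling and 74.8% higher with total counts alone. The exception was Psmc4. These ATPases unfold the substrate, and the tails of Psmc1, Psmc3 and Psmc4 dock into the alpha ring and open its gate.

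Psmc3 (ENSMUSG00000002102, chr2:91054009-91066369) had 187, 245 and 274 CPM in sham as lowest, median and highest level and 117, 155 and 196 CPM in the IZ, and 8 of 9 IZ libraries lay below the sham range. On the log2 scale the fitted change was -0.65 ± 0.12 (adjusted p = 3.82e-05) with TMM scaling and 0.43 with total counts alone. Slc39a13 overlaps Psmc3 on the opposite strand.

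The gate-opening partner Psmc4 had 65.7, 77.9 and 99.98 CPM in sham and 57.3, 73.8 and 125 CPM in the IZ, where replicate 7 held the highest value, and the medians of the groups were close. The fitted log2 fold change with TMM scaling was 0.00 ± 0.13 (adjusted p = 0.979). Psmc1, the third gate-opening subunit, fell from 115 ± 15.8 to 85.3 ± 16.4 CPM, by 0.43 ± 0.12 on the log2 scale with TMM scaling, while with total counts alone its value was 0.66.

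Psmc2, Psmc5 and Psmc6 were called lower with TMM scaling, at log2 fold changes of -0.36 ± 0.12, -0.48 ± 0.13 and -0.47 ± 0.10, and higher with total counts alone. Psmc2 went from 85.7 ± 11.6 to 66.8 ± 11.6 CPM, Psmc5 from 101 ± 22.7 to 72.4 ± 11.0 CPM and Psmc6 from 109.8 ± 14.6 to 79.1 ± 7.99 CPM. Psmc6 lay below the sham range in 8 of 9 IZ libraries, and the groups of all 3 overlapped.

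In the rest of the base, the scaffold subunit Psmd1 and the ubiquitin receptor Psmd4 were called lower with TMM scaling and higher with total counts alone, and Psmd2, which docks shuttle proteins and deubiquitinases, was not called with TMM scaling. This was 66.7% called lower with TMM scaling, against 33.1% of all tested genes. With total counts alone 74.8% of all tested genes were called higher. Psmd4 reached 84.9, 140.2 and 170.2 CPM in sham and 82.5, 93.5 and 133 CPM in the IZ as lowest, median and highest level. Sham replicates spread widely for this gene, and the groups overlapped. Its log2 fold change was -0.48 ± 0.14 (adjusted p = 0.00295) with TMM scaling and 0.59 with total counts alone.

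Psmd1 averaged 83.4 ± 9.69 CPM in sham against 66.5 ± 10.9 CPM in the IZ, with a fitted change of -0.33 ± 0.11 (adjusted p = 0.0105) with TMM scaling and 0.75 with total counts alone. Psmd2 was at 107 ± 16.7 and 96.1 ± 11.7 CPM, with a fitted value of -0.16 ± 0.11. Gm21972 overlaps Psmd1 on the same strand, and a pseudogene near-identical to the 3′ end of Psmd2, Gm5422, held 18.1% as many counts.

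The lid moved in both directions with TMM scaling, with 4 of 8 subunits called lower (Psmd3, Psmd7, Psmd11 and Psmd12) and 2 called higher (Psmd8 and Psmd14), while with total counts alone all 8 were called higher. Of all tested genes 33.1% were called lower and 36.3% higher with TMM scaling, and 74.8% higher with total counts alone. Psmd12 (ENSMUSG00000020720, chr11:107479484-107504362), a scaffold subunit of the lid, had the lowest log2 fold change of all members. Its lowest, median and highest levels were 94.2, 109 and 146 CPM in sham and 55.2, 61.8 and 78.1 CPM in the IZ, so every IZ library lay below every sham library. With TMM scaling it fell by 0.80 ± 0.10 on the log2 scale (adjusted p = 3.72e-07), and with total counts alone its value was 0.28.

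Psmd8 (ENSMUSG00000030591, chr7:29174188-29180701), the subunit that completes the lid during assembly, went the other way. It had 98.7, 111 and 123 CPM in sham and 124, 172 and 188 CPM in the IZ as lowest, median and highest level. The IZ library with the lowest level, replicate 1, was still above the highest sham library. The fitted log2 fold change was 0.61 ± 0.10 (adjusted p = 9.94e-06) with TMM scaling and 1.71 with total counts alone, and Psmd8 was called higher under each of 28 alternatives.

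Psmd14, the deubiquitinase that cuts the chain from the substrate, had 29.2, 38.8 and 61.1 CPM in sham and 40.8, 56.2 and 70.9 CPM in the IZ. Only 2 of 9 IZ libraries lay above the sham range. The log2 fold change was 0.38 ± 0.15 (adjusted p = 0.0231) with TMM scaling and 1.49 with total counts alone. The call was lost without sham replicate 1 (0.34), 2 (0.31) or 4 (0.34).

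Psmd11, which clamps the lid and base onto the core, had 85.3, 91.9 and 122 CPM in sham and 54.1, 66.2 and 81.2 CPM in the IZ as lowest, median and highest level, and the groups did not overlap. Its log2 fold change was -0.51 ± 0.10 (adjusted p = 0.000146) with TMM scaling and 0.57 with total counts alone. Psmd3, another scaffold subunit of the lid, fell from 113 ± 19.3 to 80.1 ± 13.8 CPM, at -0.49 ± 0.12 with TMM scaling against 0.59 with total counts alone.

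Psmd7, the inactive partner of Psmd14, averaged 109 ± 11.7 CPM in sham against 91.7 ± 7.0 CPM in the IZ, with a fitted change of -0.26 ± 0.09 (adjusted p = 0.0178) with TMM scaling and 0.83 with total counts alone. Its call was lost without IZ replicate 2 (-0.22) or 4 (-0.215). The lid subunits Psmd6 (73.5 ± 13.9 against 59.9 ± 14.1 CPM) and Psmd13 (89.7 ± 19.2 against 74.0 ± 15.1 CPM) were not called, at fitted values of -0.29 ± 0.15 and -0.28 ± 0.14. Psmd6 was called lower without sham replicate 3 or IZ replicate 1, and Psmd13 without sham replicate 5 or 7. Sirt3 overlaps Psmd13 on the opposite strand.

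**Figure D3:**
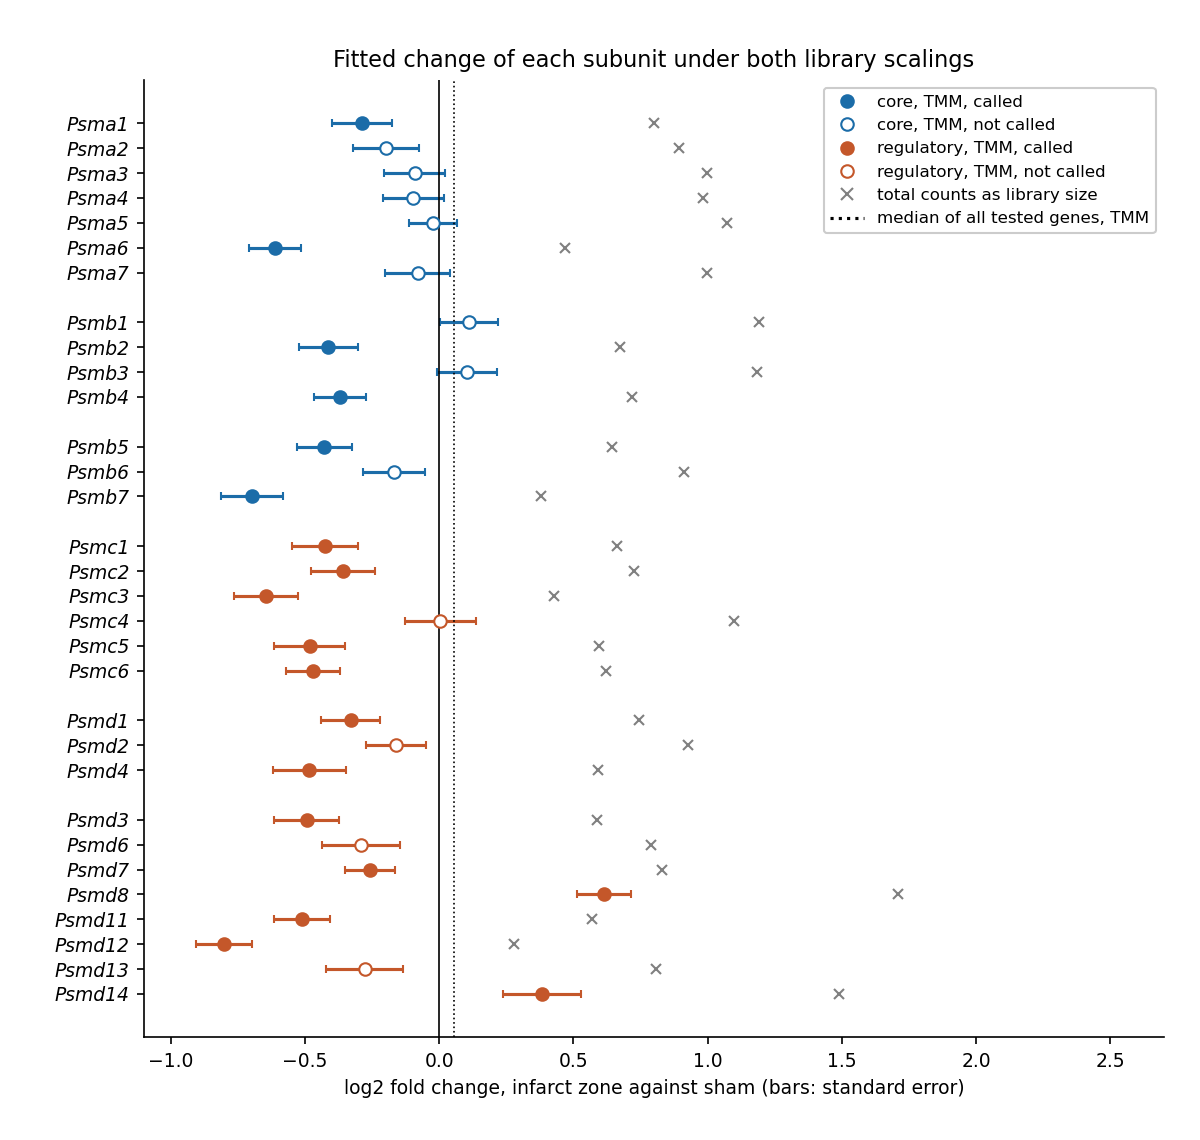
Log2 fold change of each of 31 subunits, infarct zone against sham (circles, TMM scaling with standard error; filled, called; crosses, total counts alone as library sizes; dotted line, median of all tested genes with TMM scaling). With TMM scaling 17 subunits were called lower and 2 higher, and with total counts alone all 31 were called higher.

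The plot of fitted changes shows that the change of scaling moved all subunits by a similar amount, with Psmd12 lowest and Psmd8 highest under both. The order within the complex was therefore also described without any library size, as the share of each subunit in the summed counts of the 31 members of a library. By this measure 2 members lay above sham in every IZ library, Psmd8 and Psmb1, and 2 lay below in every one, Psma6 and Psmd12, while 27 overlapped. Over all tested genes, set against the same sum, the groups were apart for 23.1% above and 11% below. Since the shares add to a fixed whole, a rise in one lowers the rest.

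Psmd8 took 3.08 ± 0.293% of the member counts across sham libraries (mean ± SD) and 5.66 ± 0.658% across IZ libraries, with ranges of 2.54 to 3.46% and 4.32 to 6.61%. Psmd12 took 3.06 ± 0.301% in sham and 2.12 ± 0.226% in the IZ (2.72 to 3.65% and 1.77 to 2.45%). Psmb1 went from 5.38 ± 0.376% to 7.04 ± 0.692%, and Psma6 from 4.66 ± 0.206% to 3.66 ± 0.271%. Psmd14 went from 1.17 ± 0.321% to 1.82 ± 0.297% with overlapping ranges (0.890 to 1.83% and 1.43 to 2.23%).

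Ratios between lid subunits of one library are a description only: the subunits were chosen for their high and low values, so the direction of the ratios was fixed by that choice. The ratio of Psmd8 to Psmd12 counts was 1.017 ± 0.166 in sham (SD, n = 8), between 0.763 and 1.27, and 2.69 ± 0.402 in the IZ (SD, n = 9), between 1.94 and 3.13. For Psmd14 to Psmd12 it was 0.387 ± 0.123 in sham, between 0.272 and 0.648, and 0.861 ± 0.139 in the IZ, between 0.644 and 1.03.

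Core and regulatory particle were compared next. With TMM scaling 6 of 14 core genes were called lower and none higher, and 11 of 17 regulatory genes were called lower and 2 higher, whereas with total counts alone all genes of both were called higher. Called lower were 42.9% of the core and 64.7% of the regulatory genes, against 33.1% of all tested genes. Called higher were 0% and 11.8%, against 36.3%. With total counts alone 74.8% of all tested genes were called higher. The median log2 fold change with TMM scaling was -0.18 for the core and -0.36 for the regulatory particle, and with total counts alone it was 0.90 and 0.725. Relative to the median of all genes, the core lay at -0.237 and the regulatory particle at -0.412 with TMM scaling, and at -0.238 and -0.415 with total counts alone. The match between the scalings again follows from the common shift of all genes. Whether the particles differed was not tested, since their genes share libraries and are not replicates.

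Summed over their genes, the core held 1822 ± 167 CPM over the 8 sham libraries (mean ± SD) and 1550 ± 108 CPM over the 9 IZ libraries. The sham libraries ran from 1580 to 2029 CPM and the IZ libraries from 1401 to 1705 CPM, so the sums of the core overlapped. The regulatory particle held 1797 ± 90.7 CPM in sham and 1454 ± 101 CPM in the IZ, with ranges of 1665 to 1954 CPM and 1346 to 1673 CPM that overlapped by 1 library of each group. The sum of all 31 members, 3619 ± 245 CPM in sham and 3004 ± 168 CPM in the IZ, was lower in every IZ library with TMM scaling (2814 to 3215 against 3279 to 3983 CPM). As a share of the unscaled total it was higher in the IZ, at 0.243 ± 0.0242% in sham and 0.424 ± 0.0525% in the IZ.

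The ratio of core to regulatory counts within a library, which no scaling changes, was 1.01 ± 0.0615 in sham, between 0.930 and 1.09, and 1.07 ± 0.0830 in the IZ, between 0.907 and 1.16. The IZ spanned a wider range than sham and covered it, so the balance of the particles differed by less than the spread between mice. Without IZ replicate 1, the IZ library with the most cardiomyocyte transcripts, the ratio in the IZ was 1.07 ± 0.0885.

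**Figure D4:**
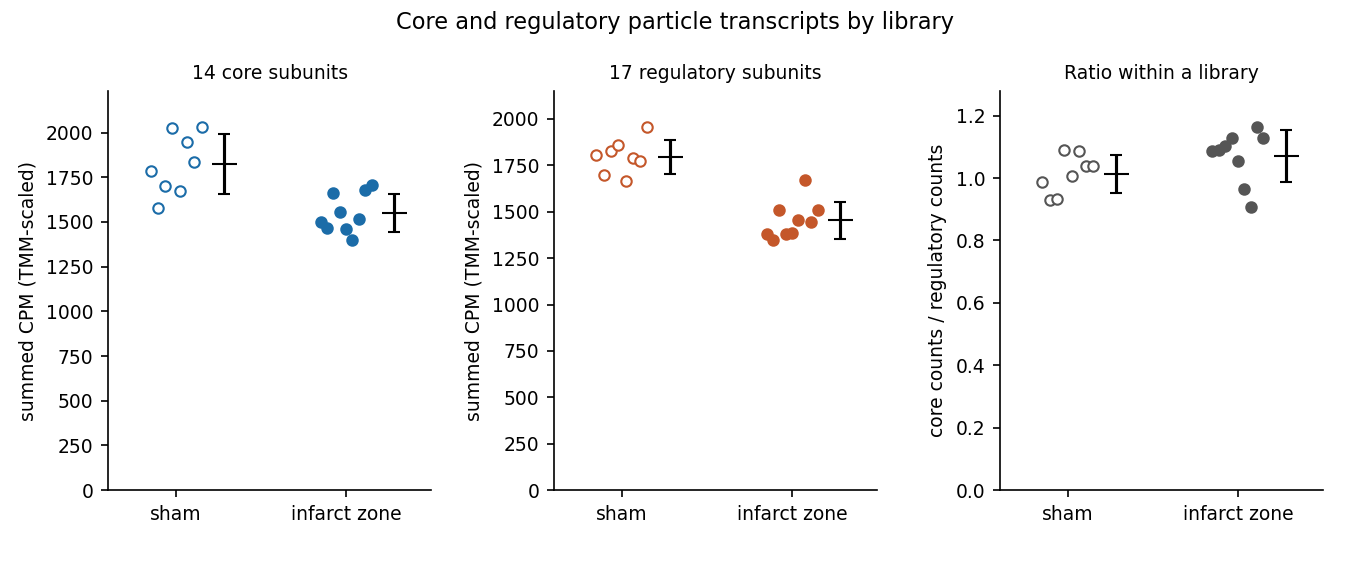
Summed TMM-scaled CPM of 14 core and 17 regulatory subunits and the ratio of their counts, per library (open circles, 8 sham; filled circles, 9 infarct zone; bars, mean and SD). Both sums were lower on average in the infarct zone with TMM scaling, while the summed share of the unscaled total was higher, and the ratio of core to regulatory counts overlapped between the groups.

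Around the complex, some genes of the proteasome pathway had larger fitted changes with TMM scaling than any constitutive subunit. Of 44 tested genes on 8 lists, 11 were called higher and 17 lower with TMM scaling, and 8 of the called genes had a change of at least 2-fold. These were 63.6% called and 18.2% called with at least 2-fold, against 69.5% and 37.6% of all tested genes. With total counts alone 13 of the 17 lower calls turned positive, and Nfe2l1, Psme4, Ubqln4 and Ecpas stayed negative. The remaining regulatory subunits, the ubiquitin receptor Adrm1 and the lid peptide Sem1, were both called lower with TMM scaling (-0.48 ± 0.13 and -0.38 ± 0.11) and higher with total counts alone (0.61 and 0.71). Adrm1 shares its 3′ end with a near-identical gene, Gm9774. Of the tissue-specific core genes, Psmb11 of the thymus and Psma8 of the testis were under the filter, with at most 1 and 4 counts in a library.

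Alternative caps replace the regulatory particle on the core. Psme4, a cap that acts without ubiquitin, had 189, 231 and 271 CPM in sham and 62.8, 81.8 and 110.5 CPM in the IZ as lowest, median and highest level, and every IZ library lay below every sham library. On the log2 scale the fitted change was -1.42 ± 0.13 (adjusted p = 1.62e-09) with TMM scaling and -0.35 with total counts alone, so it stayed negative under both.

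Psme1 and Psme2 form the cap that is induced by interferon together with the immunoproteasome. Psme1 was called lower with TMM scaling, at -0.76 ± 0.14 (adjusted p = 6.14e-05), while with total counts alone its value was 0.30, and Psme2 was not called with TMM scaling (0.18 ± 0.13). Psme3, the nuclear cap, was called lower at -0.39 ± 0.11 with TMM scaling and had a value of 0.70 with total counts alone. Psmf1, an inhibitor of the core in vitro, was not called (-0.25 ± 0.20). Psme2 shares its 3′ end with a near-identical gene, and its counts are uncertain.

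Of 9 tested assembly chaperones, 4 were called lower and 2 higher with TMM scaling (44.4% and 22.2%, against 33.1% and 36.3% of all tested genes). Ecpas, an adaptor that tethers core and regulatory particle, was the lowest at -1.28 ± 0.16 (adjusted p = 2.25e-07; -0.21 with total counts alone, where it was not called, adjusted p = 0.246), and Psmd5, a chaperone of the base, the highest at 0.57 ± 0.15 (adjusted p = 0.00181). Paaf1 was not found by its symbol in the annotation used, so its counts were not examined. Of 7 enzymes and shuttles that bind the proteasome, 4 were called lower and none higher with TMM scaling (57.1% lower, against 33.1% of all tested genes). Their lowest member was the shuttle Ubqln4 at -1.34 ± 0.15 (adjusted p = 3.66e-08; -0.28 with total counts alone, where it was not called, adjusted p = 0.069), and their highest was Ubqln1 at 0.08 ± 0.13, which was not called.

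NFE2L1 is a transcription factor that is held at the endoplasmic reticulum, is processed there and raises proteasome genes when proteasome activity falls. The gene Nfe2l1 had 226, 266 and 323 CPM in sham as lowest, median and highest level and 68.9, 87.2 and 146 CPM in the IZ, without overlap. Its log2 fold change was -1.49 ± 0.15 (adjusted p = 7.9e-09) with TMM scaling and -0.44 with total counts alone. Of the 8 genes of this list 3 were called higher and 3 lower with TMM scaling (37.5% each, against 36.3% and 33.1% of all tested genes). The highest was Syvn1, a ubiquitin ligase that targets the factor for degradation, at 0.70 ± 0.13 (adjusted p = 5.06e-05, edgeR).

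**Figure D5:**
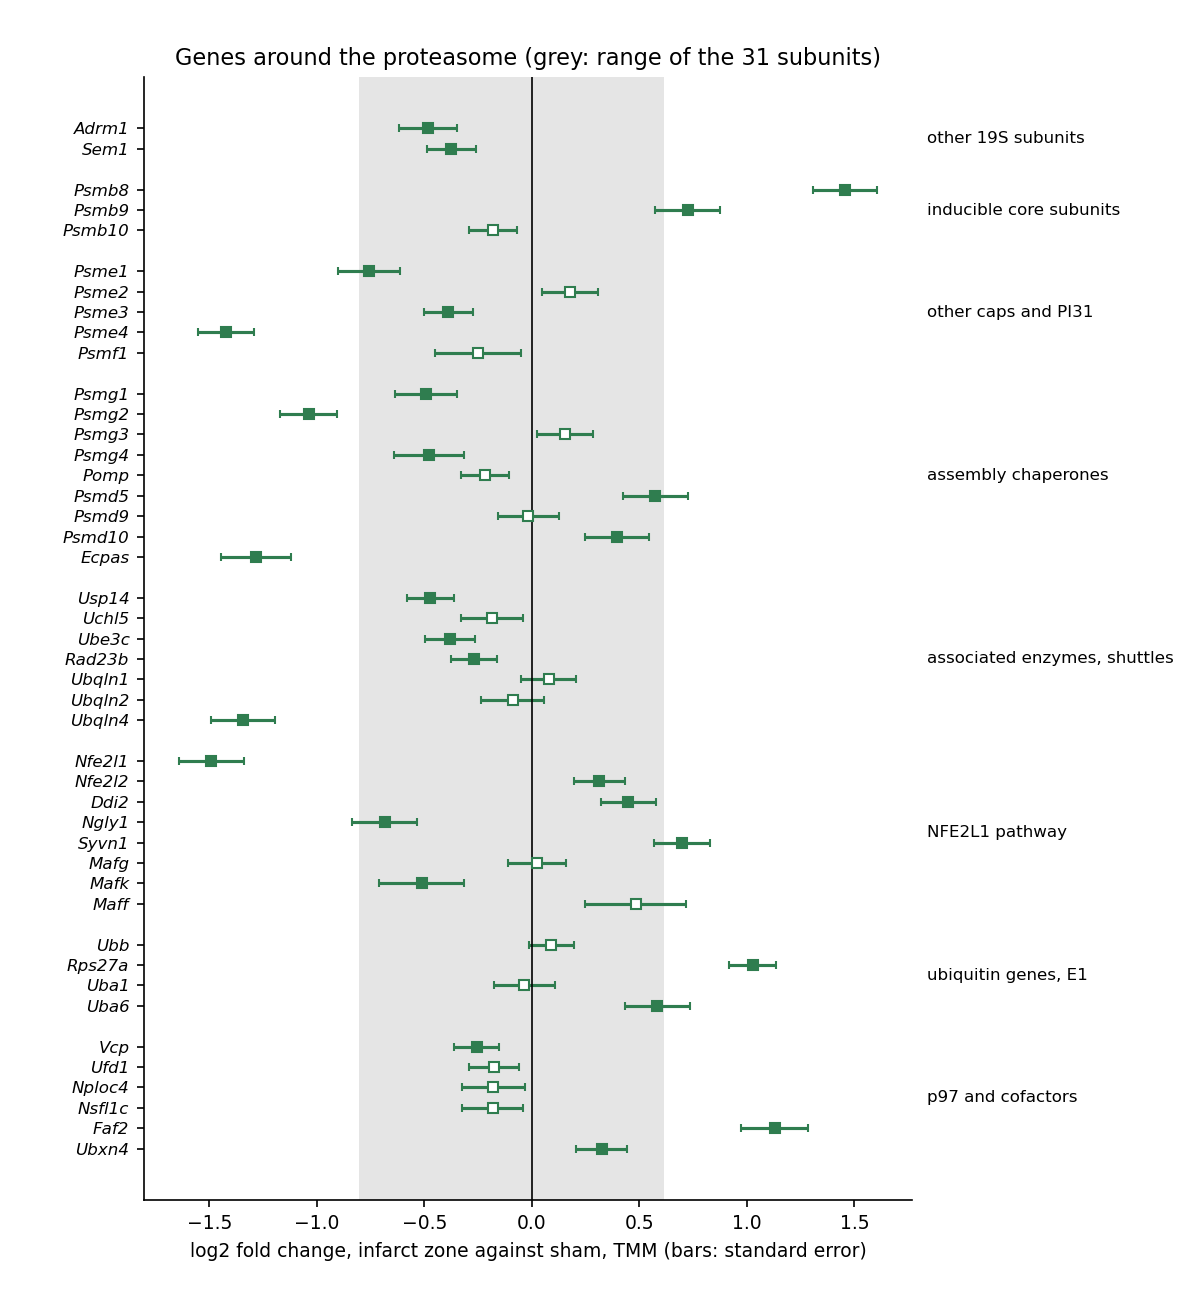
Log2 fold change of 44 tested genes around the proteasome with TMM scaling, infarct zone against sham (bars, standard error; filled, called; grey band, range of the 31 subunits from -0.80 to 0.61). Psmb8, Psmb9, Rps27a, Faf2 and Syvn1 lay above the band, also with total counts alone; Nfe2l1, Psme4, Ubqln4, Ecpas and Psmg2 lay below it, of which Psmg2 was positive with total counts alone.

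The plot of the surrounding genes shows that the inducible subunit Psmb8 and the genes Nfe2l1, Psme4, Ubqln4 and Ecpas lay outside the range spanned by the constitutive subunits with TMM scaling. Of the 6 members whose near-identical pseudogenes have features of their own, Psmb5 and Psmc1 stayed called and Psma4, Psma5, Psmb3 and Psmd2 stayed uncalled when the counts of those pseudogenes were added with TMM scaling. Psmb7, Psmc3 and Psmd1 share bases at the 3′ end with an overlapping gene, whose counts were not added, so their counts are uncertain too.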

How the data were processed

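RNA of 17 mouse hearts was sequenced by massive analysis of cDNA ends, which reads transcript 3′ ends and labels molecules so that PCR duplicates can be removed. The authors trimmed reads with Cutadapt and counted transcripts with HTSeq on mm10. The submitters' processing notes also name bcl2fastq, Bowtie2 and DESeq2. The deposited values are raw counts per gene with no normalization. The annotation release, the use of strand and the treatment of multi-mapped reads are not given in the sources used here.

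Genes that passed filterByExpr (minimum 10 counts) were compared by edgeR (version 4.0.16, under R 4.3.3). Its quasi-likelihood F-test was used two-sided and without covariates, on TMM-scaled libraries (factors 0.613 to 1.54). Benjamini-Hochberg adjustment covered all tested genes, and calls were made at 0.05. The F statistic gave the standard errors, and CPM values used the scaled library sizes. Sums, shares and ratios over members received no test. Exact binomial intervals at the 95% level cover counting error only. Samples were grouped by their labels, which name no batch, so no within-batch value could be given. The labels do not say that libraries came from separate litters, and p-values measure the spread between these mice.

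The members and all lists were chosen with earlier results of these data known. All members are named, along with every gene of lists of at most 5 genes, and the highest and lowest gene of longer lists. Other genes of the longer lists enter the counts and the plot only, and genes left out of the lists are not reported here. Copies of 3′ ends were sought with BLAST 2.17.0 over the last 500 bases, for matches of at least 100 bases at 95% identity, and gene positions came from an annotation of GRCm38, the build of mm10. Library pairs were compared by chi-square per degree of freedom (2.41 to 252), and none were copies. Scripts were tested on simulated data. Alternatives were other scalings, DESeq2 1.42.0, other filters, thinning to 1237675 counts, removal of mitochondrial features, a replicate block and the omission of each library. Adding copies' counts and total counts without mitochondrial features were chosen after seeing the data.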

Additional observations from a re-analysis of the deposited data

Results flagged for a closer look

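Each group of libraries was examined for a highest or lowest value far from the others (gap to the nearest library over the whole range, Dixon's 95% limit of 0.526 for 8 libraries and 0.493 for 9). Of 114 groups 9 met it, 6 of them groups of member genes, and chance gives about 5%. Psma2 was lowest in sham replicate 2, at 74.7 CPM against 107 CPM in the next library. Psmc4 was highest in IZ replicate 7, at 125 CPM against 85.3 CPM. In sham replicate 7 Psmd1 was highest, at 103 CPM against 85.4 CPM. Psmd4 was highest in IZ replicate 7, at 133 CPM against 96.0 CPM. Psmd8 was lowest in IZ replicate 1, the IZ library with the most cardiomyocyte transcripts, at 124 CPM against 167 CPM. Psmd12 was highest in sham replicate 8, at 145.5 CPM against 118 CPM. Outside the members, Psme3 was highest in IZ replicate 3 (38.2 CPM against 32.6 CPM) and Psmf1 lowest in sham replicate 8 (6.11 CPM against 15.9 CPM). The share of Psmb9 in its pair with Psmb6 was highest in sham replicate 8 (15.4% against 12.2%). Leaving out the library concerned changed the call of Psma2, which was then called lower with TMM scaling (-0.27), and of Psmf1 (-0.396).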

How the results depend on the processing

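The direction of the proteasome genes depended on library scaling. With total counts alone, 9203 genes were called higher and 1524 lower, members 31 and 0, core genes 14 and 0 and regulatory genes 17 and 0, with medians of 0.902 for the core and 0.725 for the regulatory particle. With total counts without mitochondrial features, 7815 genes were called higher and 2037 lower, members 23 and 0, core genes 12 and 0 and regulatory genes 11 and 0, with medians of 0.538 and 0.361. The cause was not tested. Values follow for the genes named in the text, while other genes of the longer lists that also reversed are not printed. With total counts alone the log2 fold changes of the genes that reversed were Psma1 0.799, Psma2 0.892, Psma3 0.999, Psma4 0.981, Psma5 1.07, Psma6 0.47, Psma7 0.998, Psmb2 0.673, Psmb4 0.716, Psmb5 0.643, Psmb6 0.912, Psmb7 0.378, Psmc1 0.66, Psmc2 0.725, Psmc3 0.428, Psmc5 0.595, Psmc6 0.619, Psmd1 0.746, Psmd2 0.928, Psmd4 0.59, Psmd3 0.588, Psmd6 0.79, Psmd7 0.828, Psmd11 0.57, Psmd12 0.277, Psmd13 0.807, Adrm1 0.608, Sem1 0.709, Psmb10 0.892, Psme1 0.305, Psme3 0.703, Psmf1 0.836, Uba1 1.035 and Vcp 0.827. Without mitochondrial features they were Psma1 0.435, Psma2 0.526, Psma3 0.633, Psma4 0.621, Psma5 0.701, Psma6 0.106, Psma7 0.64, Psmb2 0.308, Psmb4 0.351, Psmb5 0.285, Psmb6 0.55, Psmb7 0.018, Psmc1 0.292, Psmc2 0.361, Psmc3 0.069, Psmc5 0.238, Psmc6 0.253, Psmd1 0.384, Psmd2 0.559, Psmd4 0.233, Psmd3 0.227, Psmd6 0.429, Psmd7 0.46, Psmd11 0.207, Psmd13 0.445, Adrm1 0.242, Sem1 0.347, Psmb10 0.535, Psme3 0.334, Psmf1 0.469, Uba1 0.673 and Vcp 0.462. Fewer genes were tested at a minimum mean of 50 counts, with 2747 called higher and 2492 lower. The regulatory median was -0.248 with upper quartile scaling, where Psma1, Psmc2, Psmd1, Psmd7 and Vcp lost their calls; without the filter these, Psmb4 and Sem1 lost theirs, and after thinning Psmd7 and Vcp did. Replicate numbers did not pair the mice, since 1 of 8 same-numbered pairs had deviations correlated above 0.1 (range -0.22 to 0.13) and IZ replicate 9 had no partner; as a block they left 1 member higher, a regulatory one, and Psmd14, Psmd7 and Vcp lost their calls. Leaving out single libraries gave 1 to 2 members higher (regulatory genes 1 to 2), 15 to 18 lower, a core median of -0.24 to -0.121 and a regulatory median of -0.428 to -0.3. No called gene changed sign under the other alternatives, and neither the ratio of core to regulatory counts nor the catalytic shares changed direction under any alternative run. The number of mice and the counts per library limit small changes: 12 members were not called, which does not show that they were unchanged.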

Other observations

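Genes that supply ubiquitin or unfold its conjugates were not part of the complex, and some were called higher and 1 lower with TMM scaling, which was positive with total counts alone. Of 4 tested ubiquitin and E1 genes, 2 were called higher and none lower with TMM scaling (50% higher, against 36.3% of all tested genes). Rps27a, which encodes ubiquitin fused to a ribosomal protein, had 85.5, 93.8 and 112 CPM in sham as lowest, median and highest level and 147, 200.4 and 230.1 CPM in the IZ, without overlap, and a log2 fold change of 1.03 ± 0.11 (adjusted p = 1.85e-08, edgeR) that was also positive with total counts alone (2.12). Uba6, an enzyme that activates ubiquitin, was called higher at 0.58 ± 0.15 with TMM scaling (adjusted p = 0.00162, edgeR) and was also positive with total counts alone (1.68). The polyubiquitin gene Ubb was not called with TMM scaling (0.09 ± 0.10; 1.17 with total counts alone), nor was Uba1, the main activating enzyme (-0.04 ± 0.14; 1.03). Rps27a and Ubb have near-identical copies, so their counts are uncertain.

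Of 6 genes of the segregase p97 and its cofactors, 2 were called higher and 1 lower with TMM scaling (33.3% and 16.7%, against 36.3% and 33.1% of all tested genes). The highest was Faf2, a cofactor at the endoplasmic reticulum, with 8.36, 12.6 and 19.2 CPM in sham and 23.2, 28.7 and 40.1 CPM in the IZ and a log2 fold change of 1.13 ± 0.16 (adjusted p = 8.61e-07, edgeR; 2.22 with total counts alone). The lowest was Vcp, which encodes p97 itself, at -0.26 ± 0.10 with TMM scaling (adjusted p = 0.0313) and 0.83 with total counts alone, and its call was lost without any one of IZ replicates 2, 3, 4, 5, 6 and 9.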
